A study of Rattus norvegicus with 98 samples.

Results

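The comparison described here is between rats that inhaled 2 ppm formaldehyde and were collected at 8 days and rats that breathed air (0 ppm) and were collected at 8 days. Its members are the arrays whose titles give these doses, this route and this time, 4 arrays at 2 ppm and 5 in air, of 98 arrays in the series. Every animal was a male F344/NCrl rat, 8 weeks old, and exposure by inhalation was to the whole body for 6 h a day on 5 days a week. Other groups used were 0.7 ppm and 6 ppm at 8 days, 4 rats each. Also used were rats at 2 ppm, 6 ppm and 0 ppm, collected at 6 h, 24 h, 5 days and 19 days. These groups had 4 rats each, apart from 5 at 2 ppm and 5 days. The remaining arrays entered only the pooled estimate of spread. They came from 0.7 ppm rats at the other times, another set of 0 ppm rats at 6 h and rats at a higher inhaled dose. Rats instilled with water or formaldehyde were also among them. Each array measured messenger RNA of 1 animal as 1 log2 value per probe set, so that a difference of 1 is a doubling. The cells were released with proteases from the lateral meatus and nasoturbinate of the Level II nose, which the labels describe as mainly transitional epithelium with some respiratory epithelium, and the dissection removed olfactory epithelium and the maxilloturbinate. Collection at 8 days is given by the sample labels, whereas the series' own list of times omits it. For the 0.7 ppm rats at 8 days 1 label gives the treatment as 0.07 ppm and the others as 0.7 ppm.

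The oxidative response discussed here is the set of genes switched on when KEAP1, a sensor protein with reactive cysteines, stops directing the degradation of the transcription factor NRF2. NRF2 pairs with a small Maf protein on antioxidant response elements and raises genes that remake glutathione, reduce thioredoxin and peroxiredoxins, break down heme and detoxify quinones and carbonyls. Formaldehyde is a reactive aldehyde that binds cellular thiols, glutathione among them, and the nasal epithelium is the first tissue that an inhaled, water-soluble gas meets. The question of the comparison was whether 2 ppm at 8 days shows a weaker form of the oxidative response seen at 6 ppm.

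The labelled tissue was checked on marker genes. Krt5, a keratin of basal cells, had log2 values of 12.26 to 12.87 in the 2 ppm animals and 12.22 to 12.75 in the air animals, and Foxj1, the regulator of motile cilia, had 9.27 to 9.83 at 2 ppm and 9.12 to 10.11 in air. Olfactory markers were also present although that epithelium was to be discarded: the mean log2 level of the 8 measured markers ran from 9.54 to 11.3 in the 2 ppm animals and from 10.1 to 11.8 in the air animals. In such bulk samples, fewer cells of a type and less RNA per cell cannot be told apart. Arrays of the 2 ppm animals correlated with each other at 0.985 to 0.994 over probe sets, those of the air animals at 0.980 to 0.991, and those of a 2 ppm with an air animal at 0.977 to 0.995. RNA integrity numbers were 8.3, 8.1 and 7.9 at 2 ppm, with none given for animal 221, and 8.2 to 8.8 in air. Arrays give no counts, and the number of animals limits the precision.

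No probe set passed the test. Of 31042 probe sets, 0 (0%) had a limma adjusted p under 0.05 for 2 ppm against air at 8 days, the smallest being 0.0548, while 1317 had an unadjusted p under 0.05, 729 (2.35%) higher and 588 (1.89%) lower at 2 ppm. With each gene represented by its probe set of highest mean signal, 14217 genes were measured. Of these, 337 (2.37%) were higher and 181 (1.27%) lower at 2 ppm with an unadjusted p under 0.05, and in 121 (0.851%) all 4 exposed rats lay above all 5 air rats. These shares are the background for the counts given below. The 95% confidence interval of a gene's change reached a median of 0.223 log2 units, a factor of 1.17, to each side of its estimate, and 10th and 90th percentiles of this reach were 0.151 and 0.477.

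The oxidative genes lay above air as a list, with no gene of it passing the test over all probe sets. Besides genes raised by NRF2, the list holds regulators of the response, among them Keap1, Nfe2l2 and the repressor gene Bach1. Of 41 genes listed, 36 were measured, 31 of them (86.1%) had a higher mean at 2 ppm than in air, against 53.4% of all genes, and the median difference was 0.179 against 0.00939 over all genes. An unadjusted p under 0.05 was reached by 13 of the 36 (36.1%), all higher at 2 ppm, where the background was 2.37% of genes. In 5 genes (13.9%, background 0.851%) every exposed rat lay above every air rat, namely Slc40a1, Srxn1, Akr7a3, Keap1 and Sqstm1. At 0.7 ppm and 8 days, set against the same air rats, the median was 0.0132, 0 genes were higher and 0 lower at that threshold (background 1.59% and 1.53%), and in 0 genes all 4 rats lay above air (background 0.429%). At 6 ppm the same air rats gave a median of 0.186, 14 genes higher and 0 lower with an unadjusted p under 0.05, where 4.13% of all genes were higher and 2.6% lower, and 16 genes with all 4 rats above air (background 1.27%). Because the air rats are common to these comparisons, their values stand side by side and were not correlated.

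**Figure D1:**
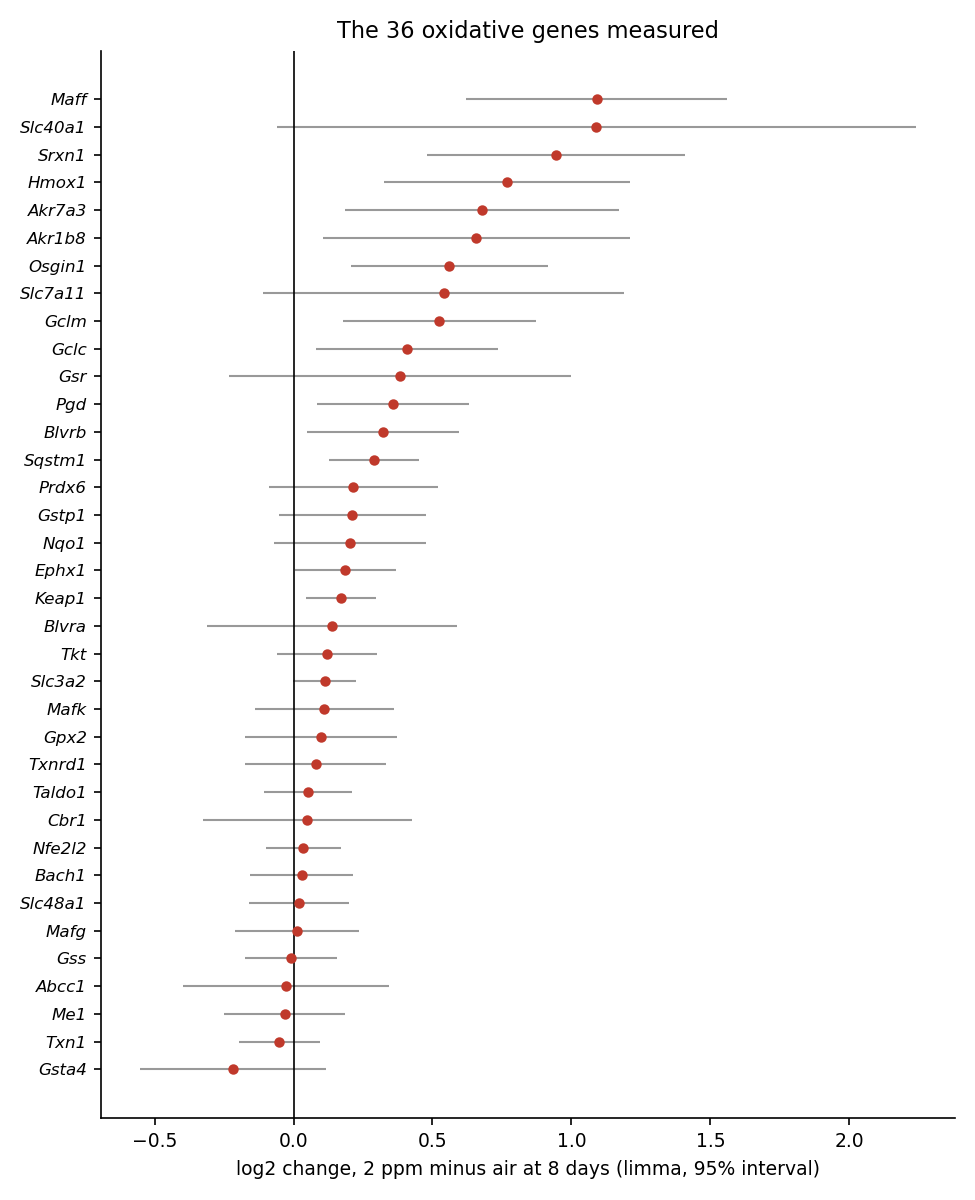
Log2 change of the 36 measured oxidative genes, 2 ppm minus air at 8 days, as limma estimates (points) with 95% confidence intervals (bars), sorted by size. The intervals of 13 genes lie wholly above 0 and none lies wholly below, with Maff, Slc40a1, Srxn1 and Hmox1 at the upper end and Gsta4 at the lower end.

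Per animal, the mean log2 level over the 36 genes was 10.06, 10.06, 10.01 and 9.803 in the 2 ppm rats 220, 221, 222 and 223, and 9.685, 9.64, 9.71, 9.794 and 9.696 in the air rats 64 to 68. All exposed rats were above all air rats, but animal 223 exceeded the highest air rat only narrowly, and it was the lowest of the 4 exposed rats in 19 of the 36 genes. Animal 223 also had the highest olfactory marker level of its group, 11.3, against 10.7, 10.4 and 9.54 in animals 220, 221 and 222, and all 8 olfactory markers had a lower mean at 2 ppm than in air, with a median difference of -0.34. Exposed animal 222 was the lowest, and without it the olfactory markers Adcy3 and Ano2 differed from air by -0.05 and -0.04, in place of -0.40 and -0.41. With the olfactory level as a covariate, an alternative chosen after seeing the data, the median of the oxidative genes was 0.167 and 13 genes again had an unadjusted p under 0.05.

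Among the heme and iron genes, Hmox1 encodes heme oxygenase 1, which degrades heme and is a classical NRF2 target. Its log2 values were 8.96, 8.84, 8.92 and 8.10 in the 2 ppm rats, against 7.86, 7.50, 8.37, 8.39 and 7.56 in the air rats. Animals 220, 221 and 222 lay above every air rat, and animal 223 lay below 2 of them. The difference was 0.77 ± 0.222 (SE of the limma model, as in all later values), a 1.70-fold higher level with a 95% interval of 1.25 to 2.31 (limma adjusted p = 0.91; two-sided exact permutation p = 0.0476). Slc40a1, the iron exporter ferroportin, had 7.32, 8.66, 7.55 and 7.76 at 2 ppm, against 6.91, 6.21, 7.01, 6.35 and 7.20 in air. Its groups did not overlap, but the spread was wide and the difference was 1.09 ± 0.578. The other Slc40a1 probe sets gave 0.87 ± 0.604 and 0.38 ± 0.556, with overlapping groups in both. Blvrb, a biliverdin reductase acting downstream of heme oxygenase, differed by 0.32 ± 0.137, with air animal 68 above 3 of the exposed rats. All 5 measured genes of heme and iron handling averaged higher at 2 ppm, with a median of 0.322.

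In the thioredoxin and peroxiredoxin group, Srxn1 had the largest difference. It encodes sulfiredoxin, which repairs over-oxidised peroxiredoxins. Its values were 9.40, 9.75, 9.0 and 8.80 in the exposed rats, against 8.62, 8.21, 8.24, 8.10 and 8.29 in the air rats, without overlap. The difference was 0.94 ± 0.233, or 1.92-fold with an interval of 1.39 to 2.65 (limma adjusted p = 0.617; two-sided exact permutation p = 0.0159, the smallest that 126 splits allow). A second probe set of Srxn1 differed by 0.99 ± 0.286, also without overlap, and another with a mean signal of only 3.75 differed by 0.11 ± 0.0909. The other members were near air in mean: thioredoxin reductase Txnrd1 differed by 0.08 ± 0.128, thioredoxin Txn1 by -0.05 ± 0.0736 and peroxiredoxin Prdx6 by 0.22 ± 0.152. A second Txnrd1 probe set gave 0.35 ± 0.223, so its 2 probe sets differed in size.

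**Figure D2:**
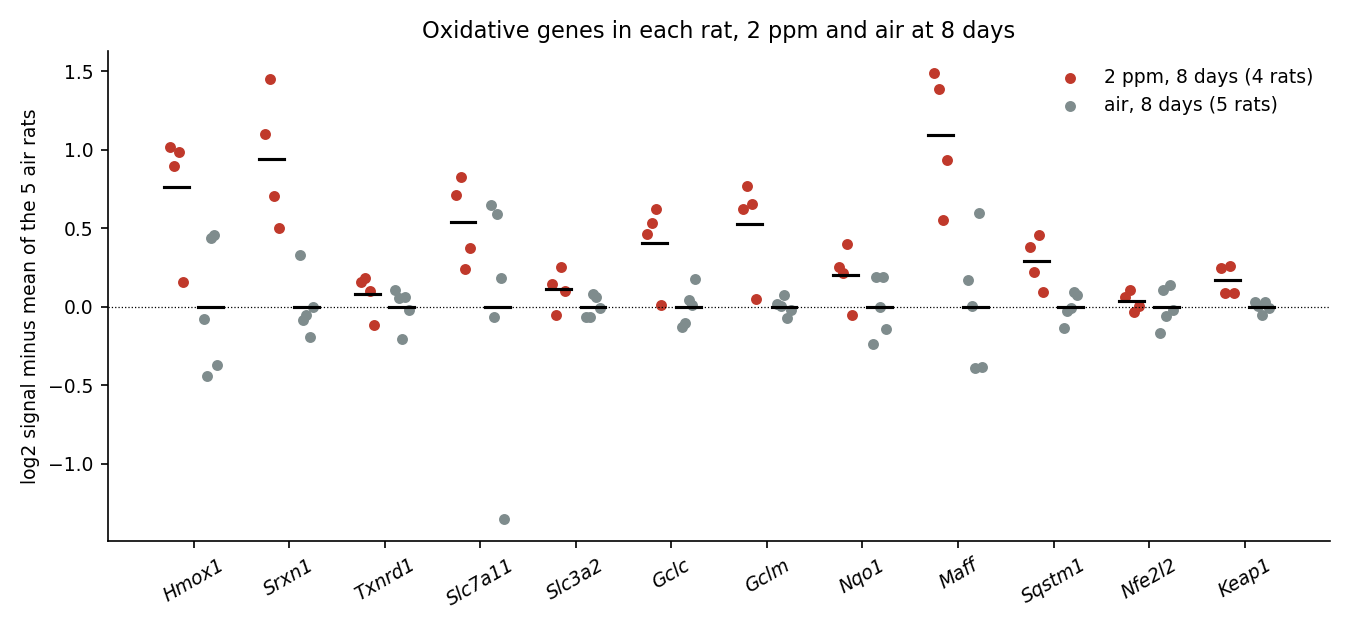
Log2 signal of 12 oxidative genes in each rat, minus the mean of the 5 air rats, with 2 ppm rats (red, left) and air rats (grey, right) and black lines at group means. Srxn1, Sqstm1 and Keap1 show no overlap of the groups, and in Hmox1 and Gclm 3 of the 4 exposed rats lie above all air rats.

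Cystine import and glutathione synthesis had a median of 0.384, the largest of the 6 oxidative lists, with 6 of 7 members higher in mean. Gclm, the modifier subunit of glutamate-cysteine ligase, had 10.74, 10.88, 10.77 and 10.16 at 2 ppm, against 10.13, 10.12, 10.19, 10.04 and 10.09 in air. The 5 air rats lay close together, 3 exposed rats lay well above them, and animal 223 lay among them. The difference was 0.52 ± 0.174, or 1.44-fold (limma adjusted p = 0.996; two-sided exact permutation p = 0.0317). Gclc, the catalytic subunit of the same ligase, differed by 0.41 ± 0.164 (interval 0.08 to 0.74; two-sided exact permutation p = 0.0635), and its second probe set by 0.52 ± 0.164. Slc7a11, the transport subunit of the cystine-glutamate antiporter, differed by 0.54 ± 0.326, but air animal 68 was far below the others at 5.05, and without it the difference was 0.20. Its partner chain Slc3a2 differed by 0.11 ± 0.0572, glutathione reductase Gsr by 0.38 ± 0.31, the glutathione peroxidase Gpx2 by 0.10 ± 0.137 and glutathione synthetase Gss by -0.01 ± 0.083.

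Enzymes that supply NADPH, reduce quinones or conjugate electrophiles showed smaller differences. Nqo1, the NAD(P)H quinone reductase often used to read NRF2 activity, had 12.99, 12.95, 13.14 and 12.68 at 2 ppm, against 12.50, 12.93, 12.73, 12.93 and 12.59 in air. Its groups overlapped, and the difference of 0.20 ± 0.137 had an interval from -0.07 to 0.475. Pgd, a dehydrogenase of the pentose phosphate pathway, differed by 0.36 ± 0.138. Among reductases of aldehydes and ketones, Akr7a3 had 7.92, 8.02, 7.44 and 7.11 at 2 ppm, against 6.90, 7.08, 6.78, 6.87 and 7.08 in air, a difference of 0.68 ± 0.248 without overlap. Akr1b8 differed by 0.66 ± 0.277 and Ephx1, the microsomal epoxide hydrolase, by 0.19 ± 0.0918. The glutathione transferases differed with opposite signs, Gstp1 by 0.21 ± 0.132 and Gsta4 by -0.22 ± 0.168. The other 9 oxidative genes (Blvra, Slc48a1, Me1, Tkt, Taldo1, Abcc1, Cbr1, Bach1 and Mafg) lay between -0.03 and 0.137.

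All 8 regulators and adaptors averaged higher at 2 ppm, 4 of them with an unadjusted p under 0.05. Maff encodes a small Maf protein, a partner of NRF2 and of the repressor BACH1. Maff values were 7.84, 7.74, 6.90 and 7.28 in the exposed rats, against 6.52, 6.36, 5.96, 6.95 and 5.96 in the air rats. Only air animal 67 reached into the exposed range, above animal 222. The difference of 1.09 ± 0.236, or 2.13-fold with an interval of 1.54 to 2.95, had the smallest adjusted p of the oxidative genes (limma adjusted p = 0.154; two-sided exact permutation p = 0.0317). Sqstm1, the autophagy receptor p62 that competes with NRF2 for KEAP1, had 11.56, 11.40, 11.64 and 11.27 at 2 ppm, against 11.04, 11.15, 11.17, 11.27 and 11.25 in air. Animal 223 exceeded the highest air rat by less than the printed precision, and the difference was 0.29 ± 0.0813 (limma adjusted p = 0.91; two-sided exact permutation p = 0.0159). Other Sqstm1 probe sets gave 0.27 ± 0.111 and, at low signal, -0.10 ± 0.106 and -0.10 ± 0.113.

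Osgin1, a growth inhibitor induced by oxidative stress, differed by 0.56 ± 0.179, and Mafk, another small Maf, by 0.11 ± 0.125. Keap1 itself had 8.48, 8.33, 8.50 and 8.33 at 2 ppm, against 8.27, 8.24, 8.19, 8.27 and 8.23 in air, without overlap. The difference was 0.17 ± 0.0635 (two-sided exact permutation p = 0.0159). A second Keap1 probe set gave 0.31 ± 0.168, with overlapping groups. Nfe2l2, the gene of NRF2, whose protein is controlled mainly after translation, differed by 0.04 ± 0.0679 (two-sided exact permutation p = 0.698). The permutation test was run on 12 oxidative genes, and its p-values were not adjusted for their number. In 6 of the 12 it gave a p under 0.05. The test was not run on other genes, so no share over all genes stands beside this count. The 12 genes were chosen with earlier results of these data known. The two-sided exact permutation p was 0.429 for Txnrd1, 0.206 for Slc7a11, 0.143 for Nqo1 and 0.127 for Slc3a2.

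Promoters of Srxn1 and Gclm are shown because both genes belong to the oxidative list and differ in the motif they hold. A pair of motifs was searched on both strands of RefSeq GRCr8 windows of 300 bases, from 250 before to 50 after a transcription start: TGACNNNGC, a core of the antioxidant response element, and TGANTCA, the shared core of Maf and AP-1 sites. The motifs can overlap, since TGANTCA followed by GC fits both when N is C. Capitals mark the matches, which in Gclm read as TGACNNNGC on the opposite strand.
Srxn1, chr3:161064562-161064861, plus strand: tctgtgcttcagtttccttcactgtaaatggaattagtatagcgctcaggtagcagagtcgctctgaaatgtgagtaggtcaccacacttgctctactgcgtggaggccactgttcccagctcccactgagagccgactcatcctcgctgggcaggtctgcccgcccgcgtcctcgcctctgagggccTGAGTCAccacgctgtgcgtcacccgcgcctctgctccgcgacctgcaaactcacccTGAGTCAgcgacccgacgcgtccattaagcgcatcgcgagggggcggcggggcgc
Gclm, chr2:213031885-213032184, plus strand: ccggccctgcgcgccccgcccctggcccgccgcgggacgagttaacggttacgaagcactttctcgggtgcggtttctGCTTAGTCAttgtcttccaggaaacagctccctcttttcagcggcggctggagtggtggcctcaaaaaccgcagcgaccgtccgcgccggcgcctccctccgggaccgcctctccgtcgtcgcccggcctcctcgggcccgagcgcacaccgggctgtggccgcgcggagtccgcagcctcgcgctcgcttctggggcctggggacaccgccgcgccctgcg
The Srxn1 window held 2 TGANTCA matches, whose first bases lay 62 and 5 bases before the start, and the Gclm match began 172 bases before it. TGACNNNGC was found in 12.1% and TGANTCA in 7.33% of 33469 promoter windows. Counted over any start of a gene, 10 of 32 oxidative genes (31.2%) held TGACNNNGC against 13.1% of all genes, and 5 of 32 (15.6%) held TGANTCA against 8.04%. A match describes these letters in these windows and no binding was measured.

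Differences between 2 ppm and 6 ppm at 8 days were then tested directly, without the air rats. RNA integrity numbers were 7.8, 7.8 and 7.7 at 6 ppm, with none given for animal 300. Each lay below the 8.3, 8.1 and 7.9 of the 2 ppm rats. The part of RNA integrity in the gene differences given here was not tested. Hmox1 had 8.96, 8.84, 8.92 and 8.10 at 2 ppm, against 10.01, 9.22, 9.30 and 9.36 at 6 ppm. All 6 ppm rats lay above all 2 ppm rats, and the difference of 2 ppm minus 6 ppm was -0.77 (interval -1.23 to -0.304). Srxn1 differed by -0.63, Maff by -0.52, Slc7a11 by -0.79, Txnrd1 by -0.40 and Sqstm1 by -0.12, with a limma adjusted p of 1 for each. Over the oxidative list 21 of 36 genes were lower in mean at 2 ppm than at 6 ppm, where 7027 of all 14217 genes were. The median difference was -0.0315, against 0.00186 over all genes. In 3 of 36 genes (8.33%, against 0.957% of all genes), namely Hmox1, Txnrd1 and Slc7a11, all 6 ppm rats lay above all 2 ppm rats, and 6 genes (16.7%, against 2.08%) were lower at 2 ppm with an unadjusted p under 0.05.

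Over all 31042 probe sets, 1 (0.00322%) differed between 2 ppm and 6 ppm at a limma adjusted p under 0.05, and 1042 at an unadjusted p under 0.05. It belonged to Cep57l1, whose values were seen before it was named, with a difference of 0.56 ± 0.105 (limma adjusted p = 0.0262). No probe set was called between these doses on the 8 arrays alone. None was called among the probe sets of above-median signal, but that setting could not test this one. Its mean signal was 4.93, where array medians were 5.93 to 6.07. The count was also 0 without any one of the 2 ppm rats, or without 6 ppm animal 298 or 300. With RNA integrity as a covariate it was 0 too, in a fit that lacked 2 ppm animal 221 and 6 ppm animal 300. Against air this probe set gave 0.175 at 2 ppm and -0.39 at 6 ppm, and another Cep57l1 probe set of higher signal gave 0.08 between the doses.

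Against 0.7 ppm, a comparison added after the values were seen, the oxidative genes averaged higher at 2 ppm. In 29 of 36 genes the mean was higher at 2 ppm than at 0.7 ppm, as in 53.3% of all genes. The median difference was 0.165, against 0.00977 over all genes. An unadjusted p under 0.05 was reached by 13 (36.1%, against 2.41% of all genes), all of them higher at 2 ppm. Srxn1 was 0.93 higher, with 7.76, 8.73, 8.22 and 8.52 in the 0.7 ppm rats, and Hmox1 was 0.83, Maff 0.77 and Sqstm1 0.33 higher. In Srxn1 and Sqstm1 each 2 ppm rat lay above all 9 rats at 0 and 0.7 ppm, which held for 7 of 14217 genes (0.0492%). No probe set passed the test between 2 and 0.7 ppm (0 of 31042 by limma, smallest adjusted p 0.981, 1203 with an unadjusted p under 0.05). The 0.7 ppm rats spread widely in the oxidative list, from 9.42 to 9.817, and their olfactory marker level ran from 9.46 to 11.96.

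**Figure D3:**
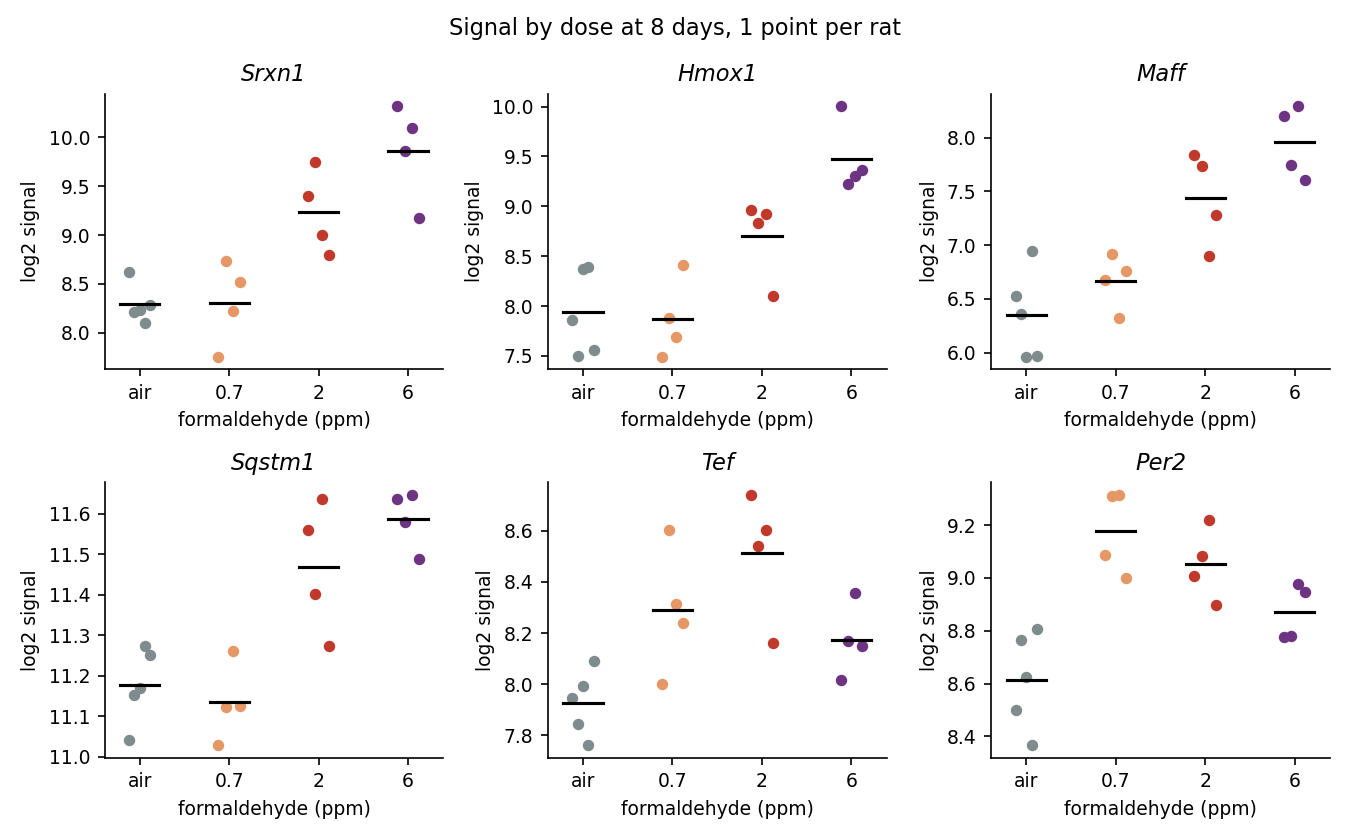
Log2 signal of Srxn1, Hmox1, Maff, Sqstm1, Tef and Per2 in each rat at 8 days by dose (0, 0.7, 2 and 6 ppm), with black lines at group means. Srxn1, Hmox1 and Maff are highest at 6 ppm with 2 ppm between, whereas Tef is highest at 2 ppm and Per2 at 0.7 ppm.

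Genes that passed the test at 6 ppm and 8 days were few. At 6 ppm 9 probe sets (0.029%) rose against the same air rats and 0 fell (limma), with 1907 at an unadjusted p under 0.05. Of the 9, 4 belonged to the oxidative list. Maff differed from air by 1.09 at 2 ppm and 1.62 at 6 ppm, Srxn1 by 0.94 at 2 ppm and 1.57 at 6 ppm, Hmox1 by 0.77 at 2 ppm and 1.54 at 6 ppm, and Sqstm1 by 0.29 at 2 ppm and 0.41 at 6 ppm. Tnfrsf12a, the receptor of the cytokine TWEAK, differed by 0.37 ± 0.182 at 2 ppm and 1.23 at 6 ppm, with 8.40, 8.35, 7.56 and 7.60 in the 2 ppm rats against 7.36, 7.08, 8.40, 7.79 and 7.39 in air. Gpr83, a G protein-coupled receptor of low signal, differed by 0.08 ± 0.168 at 2 ppm and 0.86 at 6 ppm.

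The other 3 of the 9 were a Setd5 probe set and a pair with no listed gene. The Setd5 probe set, named here after its values were seen, had 5.91, 5.99, 6.43 and 6.47 at 2 ppm, against 5.23, 4.91, 5.31, 4.84 and 5.49 in air. The groups did not overlap and the difference was 1.04 ± 0.208 (limma adjusted p = 0.0548). Against the same air rats it differed by 0.67 at 0.7 ppm and 0.97 at 6 ppm. The other Setd5 probe sets gave -0.03 and 0.04, so that the difference was seen in 1 of its 3 probe sets. The pair with no listed gene differed by 0.70 and 0.53 at 2 ppm.

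Genes called at 6 ppm at other times offer a list measured with other exposed and other air rats. At 6 h, 5 days or 19 days 74 probe sets rose and 138 fell at 6 ppm. Of the 74, 58 (78.4%, against 50.8% of all probe sets) had a higher mean at 2 ppm than in air at 8 days, with a median of 0.141. An unadjusted p under 0.05 was reached by 18 of the 74 (24.3%, background 2.35% of probe sets), all higher. The 138 that fell had a median of -0.00841, with 2 higher and 1 lower at that threshold (1.45% and 0.725%). All 14 probe sets that rose at 2 or 3 of these times averaged higher at 2 ppm and 8 days, with a median of 0.407, 7 of them (50%) with an unadjusted p under 0.05. Srxn1, Hmox1, Maff, Tnfrsf12a and Per2 were among these 7. Slc7a11, at 0.54 ± 0.326, and Coq10b, a coenzyme Q binding protein, at 0.18 ± 0.129, were among the other 7 of the 14. An Atrx probe set in this list, chosen after its values were seen, differed by 0.96 ± 0.218 without overlap, while the other Atrx probe sets lay between 0.00 and 0.39. Among the 10 genes that changed most at 6 ppm and 5 days, Slc25a15, a mitochondrial ornithine carrier, differed by 0.09 and Mgat4a, a glycosyltransferase, by 0.13. The fallen genes of those 10 gave -0.42 for Tnni2 and -0.33 for Pgam2, both muscle genes, and -0.13 for Ooep. Tnni2 gave -0.11 without air animal 64, Ooep -0.01 without air animal 68 and Mgat4a 0.02 without air animal 66.

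The 2 ppm effect at 8 days was compared with that at 5 and 19 days by interaction terms, using the air rats of each time. No probe set passed (0 of 31042 by limma at either time, smallest adjusted p 0.466 and 0.526, with 1927 and 2754 at an unadjusted p under 0.05). The oxidative list had a median change at 2 ppm of 0.00793 at 6 h, 0.0907 at 24 h, 0.0371 at 5 days, 0.179 at 8 days and -0.0305 at 19 days. The 8 day effect was above the 5 day effect in 29 of 36 genes (all genes 56.3%), with a median difference of 0.187 (all genes 0.0257). It was above the 19 day effect in 26 of 36 (all genes 59.7%), with a median of 0.261 (all genes 0.0492). For Srxn1 the difference from air was 0.22 at 6 h, 0.09 at 24 h, 0.22 at 5 days, 0.94 at 8 days and 0.26 at 19 days. Its 8 day effect exceeded the 5 day effect by 0.72 (interval 0.0662 to 1.38, limma adjusted p = 0.78). Hmox1 was already 0.66 at 5 days, an interaction of 0.11 (interval -0.517 to 0.732), and was -0.27 at 19 days.

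**Figure D4:**
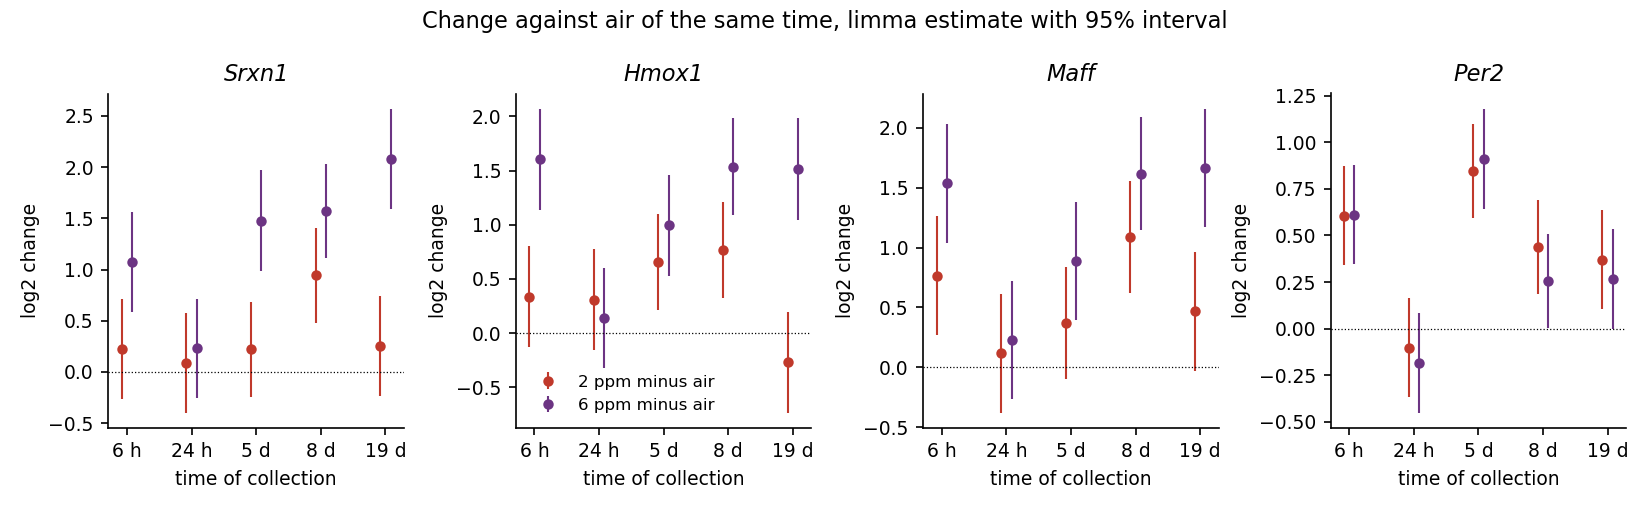
Log2 change against air of the same time for Srxn1, Hmox1, Maff and Per2 at 2 ppm (red) and 6 ppm (purple), as limma estimates with 95% intervals, at 6 h, 24 h, 5 days, 8 days and 19 days. At 2 ppm Srxn1 reaches 0.94 at 8 days and stays under 0.3 at the other times, and at 6 ppm it lies above 1 at every time but 24 h.

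Clock genes averaged higher than in air at 2 ppm and also at 0.7 ppm. Cells keep daily time by a loop in which BMAL1 with CLOCK or NPAS2 drives the repressors of the Per and Cry families and the output factors DBP, TEF and HLF, which bind D-box sites. With each gene read from its probe set of highest mean, Tef had the smallest adjusted p, with 8.74, 8.54, 8.60 and 8.16 at 2 ppm, against 7.95, 7.85, 7.99, 7.76 and 8.09 in air. The groups did not overlap, and the difference was 0.58 ± 0.114, or 1.50-fold with an interval of 1.28 to 1.76 (limma adjusted p = 0.0548). The other Tef probe sets gave 0.68 ± 0.191 and 0.52 ± 0.187. Without animal 223, the lowest exposed rat in Tef, its limma adjusted p was 0.00438. Without air animal 68, the highest air rat, it was 0.0326. With any other single rat left out it stayed above 0.05.

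Of 17 clock genes 16 were measured, and 13 averaged higher at 2 ppm (all genes 53.4%), with a median of 0.129. At an unadjusted p under 0.05, 6 (37.5%, background 2.37%) were higher and 1 was lower (background 1.27%). Per2, a repressor of the loop, had 9.01, 9.08, 9.22 and 8.90 at 2 ppm, against 8.50, 8.76, 8.63, 8.37 and 8.81 in air, without overlap, a difference of 0.44 ± 0.127. Its second probe set gave only 0.09 ± 0.0851. Wee1, a cell cycle kinase under clock control, had 8.55, 8.45, 8.74 and 8.26 at 2 ppm, against 7.96, 7.87, 8.15, 7.93 and 8.17 in air, a difference of 0.49 ± 0.137 without overlap. Dbp differed by 0.52 ± 0.154, Per1 by 0.36 ± 0.139 and Nr1d2, a REV-ERB repressor, by 0.26 ± 0.111. Npas2, a partner of BMAL1, differed by -0.39 ± 0.15, and Bmal1 gave -0.13 ± 0.133.

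At 0.7 ppm the clock list had a median of 0.0778 against the same air rats, with 6 genes higher and 2 lower at an unadjusted p under 0.05 (background 1.59% and 1.53%), and Per2 gave 0.57 and Per1 0.61. At 6 ppm its median was 0.0686, with 3 genes higher and 1 lower (background 4.13% and 2.6%). Set directly against 0.7 ppm, the 2 ppm clock genes had a median difference of 0.0437 and 0 of 16 reached an unadjusted p under 0.05, with Per2 at -0.13 and Wee1 at 0.02. At 2 ppm and 5 days, in other rats, Per2 rose by 0.85 (limma adjusted p = 1e-04) and Wee1 by 0.65 (limma adjusted p = 0.0171). Of the 23 probe sets called there, 20 rose. At 2 ppm and 8 days 14 of these 20 averaged higher, as did 50.8% of all probe sets. Their median was 0.134 at 8 days against 0.834 at 5 days, taken over the 20. The hour at which each group was collected is not known here, and dose and collection time cannot be told apart. Of 10 measured glucocorticoid-responsive genes, 8 averaged higher at 2 ppm than in air (all genes 53.4%) and 2 (background 2.37%) had an unadjusted p under 0.05. These 2 were Tsc22d3 and Per1, and Per1 is also counted in the clock list. The list median was 0.353 at 0.7 ppm, 0.238 at 2 ppm and 0.134 at 6 ppm. Tsc22d3, an anti-inflammatory leucine zipper gene, differed from air by 0.62 at 0.7 ppm, 0.56 ± 0.188 at 2 ppm and 0.17 at 6 ppm.

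**Figure D5:**
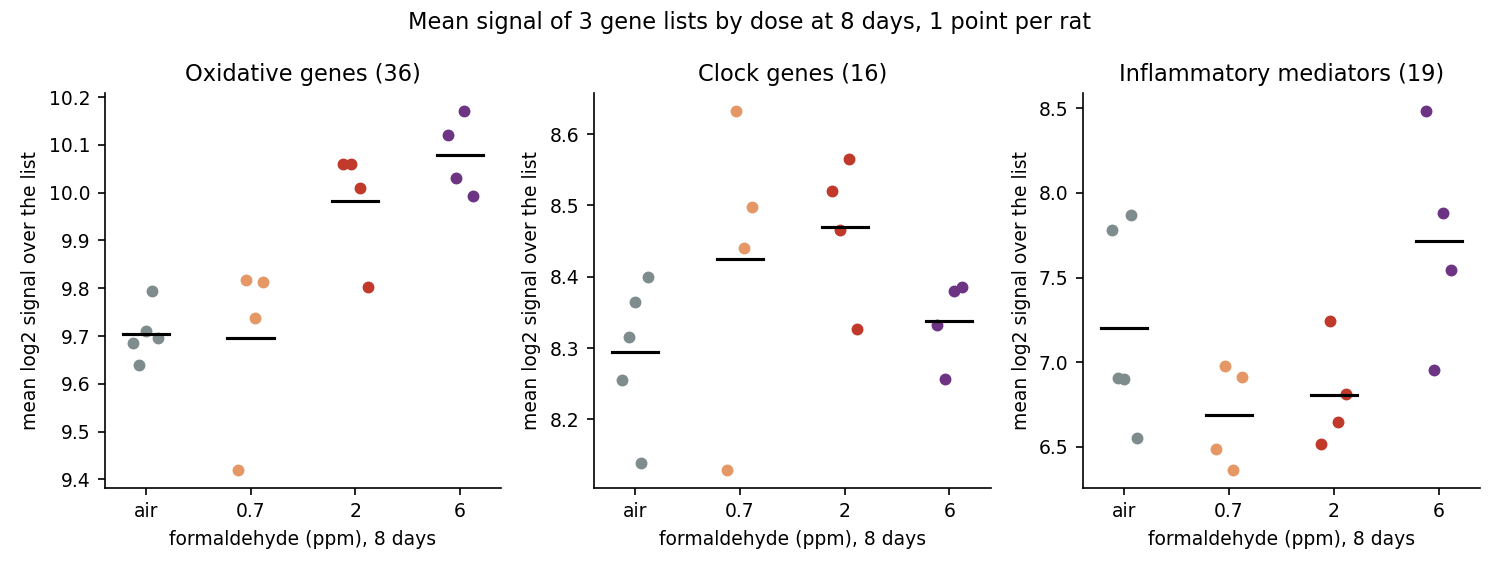
Mean log2 signal over the 36 oxidative genes, 16 clock genes and 19 inflammatory mediators in each rat at 8 days by dose (0, 0.7, 2 and 6 ppm), with black lines at group means. In the oxidative list the 2 ppm rats lie at 9.803 to 10.06, above all air rats, while in the inflammatory list 2 of the 5 air rats lie above all 2 ppm rats.

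The promoters of Tef and Per2 are shown for the clock motifs they hold: CACGTG, the E-box bound by BMAL1 complexes, and TTATGTAA, a D-box bound by TEF and DBP. CACGTG reads the same on both strands, TTATGTAA was searched on both, and the letters of the pair share no overlap. Windows are as for Srxn1, and capitals mark the match.
Tef, chr7:115206577-115206876, plus strand: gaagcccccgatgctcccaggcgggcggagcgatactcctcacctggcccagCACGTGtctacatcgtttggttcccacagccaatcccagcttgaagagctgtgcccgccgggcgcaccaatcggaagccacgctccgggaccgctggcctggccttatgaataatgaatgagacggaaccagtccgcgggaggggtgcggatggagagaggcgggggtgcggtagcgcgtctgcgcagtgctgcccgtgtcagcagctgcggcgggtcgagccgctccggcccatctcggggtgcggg
Per2, chr9:99496944-99497243, minus strand: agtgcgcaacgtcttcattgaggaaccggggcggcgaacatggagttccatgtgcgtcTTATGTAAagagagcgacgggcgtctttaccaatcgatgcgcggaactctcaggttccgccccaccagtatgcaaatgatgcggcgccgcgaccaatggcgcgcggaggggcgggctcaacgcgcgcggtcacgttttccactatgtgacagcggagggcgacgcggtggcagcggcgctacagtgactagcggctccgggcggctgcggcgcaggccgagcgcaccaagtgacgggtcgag
The matches began 198 bases before the start in Tef and 192 bases before it in Per2. CACGTG was in 6.42% and TTATGTAA in 0.893% of promoter windows, and over any start of a gene in 4 of 13 clock genes (30.8%, all genes 7.08%) and 1 of 13 (7.69%, all genes 0.958%).

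Inflammatory mediators averaged lower at 2 ppm than in air. Of 19 genes, 2 had a higher mean at 2 ppm (all genes 53.4%) and 3 (Cxcl2, Il1b and Cxcl1) were lower at an unadjusted p under 0.05 (background 1.27%). The list median was -0.25 at 0.7 ppm, -0.176 at 2 ppm and 0.46 at 6 ppm. Cxcl2, a neutrophil-attracting chemokine, had 6.46, 8.78, 7.54 and 7.90 at 2 ppm, against 10.84, 8.92, 8.30, 10.42 and 7.11 in air, a difference of -1.45 ± 0.65. Air animals 64 and 67 were the highest, and without them in turn the difference was -1.02 and -1.13. In the inflammatory list the 2 ppm rats ran from 6.515 to 7.243, and these 2 air rats were at 7.778 and 7.867. Of 10 neutrophil markers 7 were measured, with list means of 5.762 to 6.623 at 2 ppm and 5.869 to 6.751 in air, where the same 2 air rats were highest. The part of neutrophils in the result was not tested. Il1b, a cytokine of myeloid cells, differed by -1.39 ± 0.624 and Cxcl1, another chemokine, by -0.93 ± 0.421. The count of 3 was 0 without animal 64, without animal 67 or without exposed animal 220, and it was 6 without exposed animal 221, without air animal 68 or with the olfactory level as a covariate. With all 9 rats kept it was 0 when the model was fitted to these 9 arrays alone or to the arrays of 8 days alone. Against 6 ppm, all 19 genes averaged lower at 2 ppm, with a median of -0.86, 11 of them (57.9%, against 2.08% of all genes) at an unadjusted p under 0.05 and 0 past the limma test. Neutrophil markers were lower in mean at 2 ppm than at 6 ppm in 6 of 7 genes (median -0.394, list means 5.762 to 6.623 at 2 ppm and 5.674 to 7.189 at 6 ppm). Macrophage and dendritic cell markers were lower in 11 of 12 (median -0.238, list means 8.958 to 9.405 at 2 ppm and 8.995 to 9.768 at 6 ppm). The part of these cells in the difference between the doses was not tested.

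Among genes of aldehyde metabolism, Adh5, the formaldehyde dehydrogenase that oxidises S-hydroxymethylglutathione, had 11.24, 11.28, 11.03 and 11.37 at 2 ppm, against 11.02, 11.49, 11.15, 11.17 and 11.25 in air, and its difference was 0.01 ± 0.133 with an interval from -0.253 to 0.278. Aldh2, the mitochondrial aldehyde dehydrogenase, differed by 0.34 ± 0.145 and Aldh3a1 by 0.35 ± 0.143. These were the 2 of 11 measured genes with an unadjusted p under 0.05, both higher at 2 ppm (background 2.37%). Fmo2, a flavin monooxygenase, differed by 0.52 ± 0.241 and Por, the electron donor of cytochromes P450, by 0.22 ± 0.108. Without exposed animal 222 Fmo2 differed by 0.34, Por by 0.10 and Aldh2 by 0.22.

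Other stress and growth lists gave few low p-values. No gene of the heat shock, DNA repair, cell cycle, immediate early, mitochondrial or cholesterol lists reached an unadjusted p under 0.05, and none did in the 10 cell type lists. Mki67, a proliferation marker, differed by -0.26 ± 0.229, Mcm6, a replication helicase subunit, by 0.25 ± 0.138, and Krt5 by 0.00 ± 0.249. Trib3, a target of the amino acid response, differed by -0.51 ± 0.252 and Bbc3, the p53 target PUMA, by -0.29 ± 0.104, each the single gene of its list with an unadjusted p under 0.05. Krt17, a keratin of stressed basal cells, had 12.64, 12.37, 10.96 and 13.03 at 2 ppm, against 11.96, 10.17, 11.63, 10.36 and 12.19 in air, and the difference of 0.99 ± 0.616 had overlapping groups.

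The remaining genes with the smallest p-values belonged to none of these lists. Tsku, a secreted leucine-rich protein, differed by 0.63 ± 0.166, and Ung, the uracil-DNA glycosylase, had 7.59, 7.76, 7.57 and 7.68 at 2 ppm, against 7.34, 6.98, 7.38, 7.10 and 7.40 in air, a difference of 0.41 ± 0.119 without overlap. Nat10, an RNA acetyltransferase, had 6.86, 6.84, 6.94 and 6.96 against 6.63, 6.54, 6.66, 6.58 and 6.54 in air, a difference of 0.31 ± 0.0836, and Pgam5, a mitochondrial phosphatase, differed by 0.28 ± 0.0764, both without overlap. Chmp1a, an ESCRT-III subunit, differed by 0.43 ± 0.115, and by 0.21 without air animal 64. On the lower side Eml2, a microtubule-binding protein, differed by -0.66 ± 0.188, Pde4dip, a centrosome and Golgi scaffold, by -0.63 ± 0.211, the histone chaperone Hira by -0.49 ± 0.163 and lamin B1, Lmnb1, by -0.41 ± 0.121. Animal 220 was the lowest exposed rat in both Hira and Lmnb1, and without it Hira differed by -0.03 and Lmnb1 by -0.20. The other probe sets gave -0.09 for Hira, 0.01 and -0.08 for Lmnb1, -0.18 for Pde4dip and -0.04 for Pgam5. LOC100911253, Dock4, Fstl4, Stard9, Rabgap1l, Map4k4, Pkd1 and LOC102548331 completed the 12, with differences from -0.62 to -0.23. The limma adjusted p of these genes ran from 0.878 to 0.996.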

How the data were processed

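The deposited file holds log2 values, 1 per probe set of the Affymetrix Rat230_2 array and animal. The scale was read from the values (2.67 to 14.83), and the authors' summarisation and normalization are not given in the sources used here. Sorted values differed between the arrays by an SD of at most 0.065. RNA came from a Qiagen kit, per the labels' protocols. Of 31099 probe sets, 57 controls were left out. No pair of arrays was identical. Nothing says how the animals were housed or which were handled together, so p-values measure spread between animals only. For limma this is the spread within groups, pooled over all 98 arrays. For the permutation tests it is that of the 9 rats compared.

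A linear model with 1 coefficient for each of 24 groups was fitted to all 98 arrays (74 residual degrees of freedom) with R 4.3.3 and limma 3.58.1 (values read with the data.table package, 1.17.8). Benjamini-Hochberg adjustment ran over 31042 probe sets within a comparison, two-sided, and a call needed an adjusted p under 0.05. Exact permutation tests for 12 single oxidative genes used all 126 splits of 4 and 5 rats, the smaller tail doubled. The smallest p is thus 0.0159, and these p-values were not adjusted. The code was tested on simulated data.

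Symbols came from the platform annotation, updated by gene identifier to RefSeq GRCr8 (20826 probe sets with 1 symbol, 436 with several, 9780 without a listed gene). A gene was read from its probe set of highest mean. Named were the 12 genes of smallest p in each direction, since none was called, the oxidative genes, up to 3 genes of each other list by p, the 10 genes of largest change at 6 ppm and 5 days, and Adh5, Aldh2, Per2, Bmal1, Mki67, Krt5 and Foxj1. The members, the gene lists and the comparisons were chosen with earlier results of these data known. Alternatives were fits on fewer arrays, cyclic loess, a trended robust prior, array weights, RNA integrity or olfactory level as a covariate, brighter probe sets, averaged probe sets and omission of each rat. The fit with RNA integrity used the 85 arrays with such a number. Of the 8 day rats, 2 ppm animal 221 and 6 ppm animal 300 were thus left out. The olfactory covariate, the omission of 2 air rats together and the comparison with 0.7 ppm were added after seeing the data.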

Additional observations from a re-analysis of the deposited data

Results flagged for a closer look

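In 86 genes given with values, a single rat lay far from the rest of its group, by Dixon's criterion at 95%, 4 times among the 2 ppm rats (4.65%) and 3 times among the air rats (3.49%), where chance gives about 1 in 20. Hmox1 in the 2 ppm animal 223 was at 8.1, and its nearest neighbour of the group was at 8.84. Pgd in the same animal was at 11.4, with the nearest at 11.6. Lmnb1 in the 2 ppm animal 220 was at 8.48, with the nearest at 9.25. Per1 in the 2 ppm animal 222 was at 9.19, with the nearest at 8.88. In air, animal 64 was low in Chmp1a at 7.74 and in Gss at 8.48, where the nearest rats had 8.75 and 8.73, and animal 67 was low in Hira at 7.85, with the nearest at 8.06. The Cep57l1 probe set that differed between 2 ppm and 6 ppm did so by 0.565, which limma tested directly (adjusted p = 0.0262), and the call was lost without any one of the 2 ppm rats.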

How the results depend on the processing

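No paired analysis was possible because the groups share no replicate numbers and no animal was sampled again. The count of probe sets called for 2 ppm against air, 0, was 7 with array weights (Maff, Tef, Srxn1, Atrx, Serpinb12 and 2 without a listed gene), 1 (Tef) among the brighter probe sets, 1 (Tef) with the olfactory level as a covariate, and 0 to 2 when each rat was left out, Tef without animal 223 and Tef and Setd5 without air animal 68. For 6 ppm against air, 9 became 0 on the arrays of the comparison alone, 16 with array weights and 4 to 15 when each rat was left out, 4 without animal 298 and 15 without animal 299. For 0.7 ppm, 0 became 56 with array weights and 0 to 1 when each rat was left out. For 2 ppm against 6 ppm, 1 became 0 on the arrays of the comparison alone, 0 among brighter probe sets, 0 with RNA integrity as a covariate, 4 with array weights and 0 to 2 when each rat was left out. The brighter probe sets could not hold the Cep57l1 call, because the mean signal of that probe set was 4.93. The 8 against 5 day interaction gave 1 with array weights, and the 8 against 19 day interaction 0 to 1 when each rat was left out. The cause of these shifts was not tested.

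The median of the oxidative genes, 0.179, ran from 0.139 (without animal 222) to 0.214 (without animal 223) when each rat was left out. Over the other alternatives it ran from 0.142 (cyclic loess) to 0.199 (RNA integrity as a covariate). The RNA integrity fit lacked animal 221, which has no number, and leaving out this rat alone also gave 0.199. The 13 oxidative genes with an unadjusted p under 0.05 became 10 to 14 with a rat left out and 11 to 15 otherwise, and the 6 clock genes 4 to 6 in both. Genes near 0 turned sign: Nfe2l2 -0.000108, Adh5 -0.024 and Krt5 -0.0285 under cyclic loess, Krt5 -0.0376 and Gss 0.0113 with the olfactory covariate. With each rat left out Nfe2l2 ran from -0.00537 to 0.0704, Adh5 from -0.0366 to 0.0807, Krt5 from -0.127 to 0.0746, Foxj1 from -0.176 to 0.0718 and Gss from -0.0727 to 0.0188. The number of animals, 4 and 5, limits what could be detected.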

Other observations

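The cell type lists held differences that no test passed. Of 11 ciliated cell genes 6 were measured, and all 6 averaged lower at 2 ppm than in air, where 53.4% of all genes averaged higher. Their differences were small, from -0.173 to -0.0173, with a median of -0.0426. Of 11 secretory genes 8 averaged higher, as did 53.4% of all genes, with a list median of 0.119. Muc5b, a secreted airway mucin, had 10.56, 10.57, 10.71 and 10.96 at 2 ppm, against 10.21, 9.90, 9.90, 10.30 and 10.62 in air, where animal 68 reached above 2 of the exposed rats, and the difference was 0.52 ± 0.317. Skeletal muscle and cartilage genes, which should be absent from an epithelial digest, had list means of 4.70 to 5.30 at 2 ppm and 4.62 to 6.43 in air, with air animal 64 the highest.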
